A study of Mus musculus with 40 samples.

Results

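Matrix metalloproteinases (MMPs) and their tissue inhibitors (TIMPs) were described in mouse hearts by 10 genes: *Mmp2*, *Mmp3*, *Mmp11*, *Mmp14*, *Mmp15*, *Mmp19*, *Timp1*, *Timp2*, *Timp3* and *Timp4*. They were chosen by name, with earlier results of these data known, so counts of members beside shares of all genes are descriptive. All 10 were among the 17038 genes listed for both male and female hearts and passed the filter on low values in both sexes. PolyA RNA of 40 hearts was sequenced, 1 library per mouse; the labels name heart and the study's methods left ventricle as the tissue. CM-Il11-Tg mice carried α-MHC-MerCreMer, which drives a tamoxifen-dependent Cre in cardiomyocytes, and a *Rosa26-Il11* transgene, each on 1 allele, and were studied 1, 3 and 6 weeks after tamoxifen; these are called induced hearts. Tamoxifen was injected at 8 weeks of age (20 mg/kg on 5 consecutive days). Control mice were, by the study's methods, age-matched littermates that carried the Cre driver without *Rosa26-Il11* and also received tamoxifen. Their labels read Baseline and give no week. Any difference in age or in time since tamoxifen between control and induced hearts therefore cannot be told apart from induction. Uninduced mice were CM-Il11-Tg mice that received none; their age is not given in the sources used here, so the transgene, the missing tamoxifen and any difference in age cannot be told apart in a comparison of uninduced with control hearts. Each group held 4 libraries per sex, except male controls and male 6-week hearts with 3 each, because the labels of 2 male libraries contradict one another. Values are in CPM, read counts that the authors scaled to normalized library sizes rather than to the plain read total. Their sums over the listed genes ran from 817395 to 1196278 CPM per library and differed by group. In females they were 1181923 to 1196278 in controls and 848402 to 985319 in induced hearts. In males they were 1063756 to 1193422 in controls and 817395 to 1165099 in induced hearts. Scaling to the plain read total would therefore raise female induced values relative to controls. That scaling was not run. Values were compared within a sex only because the 2 tables were scaled separately.

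MMPs are zinc-dependent proteases that cut collagens, laminins, proteoglycans and other matrix proteins, and many are made as inactive proenzymes. TIMPs bind the active site and block it. *Mmp14* and *Mmp15* encode membrane-anchored enzymes, and MMP14 together with TIMP2 activates the MMP2 proenzyme at the cell surface. In the heart, fibroblasts and immune cells are known sources of MMPs, and TIMP4 is the inhibitor known for its high expression in cardiac tissue.

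The libraries held 16663513 to 65333832 reads on listed genes in males and 19147947 to 30929192 in females. *Il11* was at 0 to 0.147 CPM in male controls and 0 to 0.166 CPM in female controls, and at 328 to 819 CPM in every library of the induced groups. Uninduced hearts held 16.5 to 23.3 CPM in males and 15.5 to 49.1 CPM in females, so *Il11* was above every control in CM-Il11-Tg hearts that had received no tamoxifen. A pair of female libraries carried atrial transcripts: *Myl7*, an atrial myosin light chain, stood at 346 CPM in replicate 2 of the 6-week group and 52.3 CPM in replicate 2 of the 1-week group, against at most 0.529 CPM in the control, uninduced and 3-week female libraries. Counts of members without these libraries are given where they changed. In bulk RNA, fewer cells of a type and less RNA per cell cannot be told apart.

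In induced hearts, 6 of the 10 genes rose at every week in both sexes: *Mmp2*, *Mmp3*, *Mmp14*, *Mmp19*, *Timp1* and *Timp2*. *Mmp15* and *Timp4* fell at every week in both sexes. *Timp3* fell at every week in females and at 1 week in males, and *Mmp11* rose at 6 weeks in females alone; whether the sexes differ was not tested. Calls are from limma at a Benjamini-Hochberg adjusted p under 0.05 over all genes of a sex, and fold changes are on the log2(CPM + 0.5) scale, which understates the change of low genes.

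At 1 week in males, 6 members were higher and 3 lower than in controls, where 18.9% of all 16931 tested genes were called higher and 14.6% lower. At 3 weeks the male counts were 6 and 2 (all genes 13.2% and 8.1%), and at 6 weeks again 6 and 2 (16.2% and 10.9%). At 1 week in females, 6 members were higher and 3 lower, with 15.3% and 13.1% of 16956 genes called. At 3 weeks the female counts were 6 and 3 (16.8% and 14.5%), and at 6 weeks 7 and 3 (21.7% and 21%). The median log2 fold change over the 10 members at 6 weeks was 1.56 in males and 1.64 in females, beside -0.0062 and -0.02 over all genes tested. All 3 weeks were compared with the same control libraries. Without the 6-week female library that held atrial transcripts, 8 members were called in place of 10, *Mmp11* and *Timp3* being lost, and without the 1-week one 10 were called in place of 9.

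**Figure D1:**
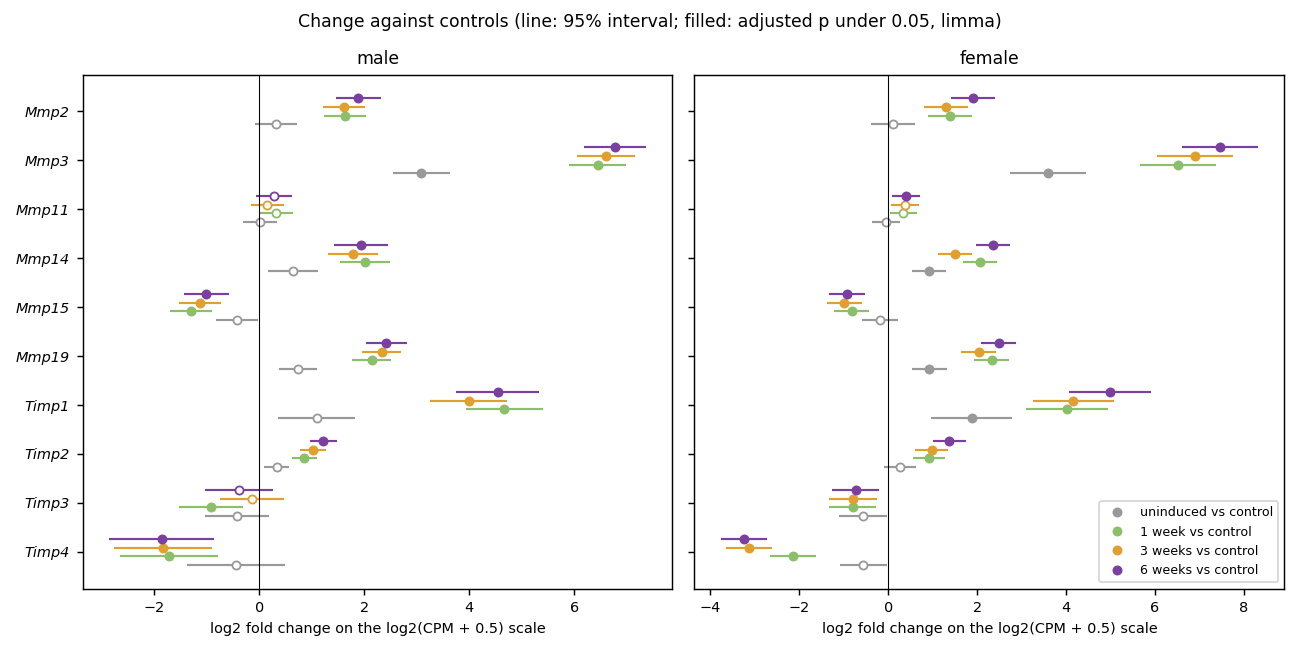
Log2 fold change of each member against control hearts (x axis, log2(CPM + 0.5) scale) with its 95% interval, in males (left) and females (right), for uninduced hearts and for 1, 3 and 6 weeks after tamoxifen. Filled points passed the limma test; *Mmp3* and *Timp1* lie farthest to the right in both sexes, and *Timp4* farthest to the left.

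*Mmp3* (ENSMUSG00000043613, GRCm39 chr9:7445822-7455975, plus strand), which encodes a stromelysin with a broad choice of matrix substrates and the ability to activate other proMMPs, changed most. Male controls held 2.06, 0.795 and 1.42 CPM. Male hearts held 177, 169, 146 and 154 CPM at 1 week, 188, 188, 168 and 180 at 3 weeks, and 224, 192 and 193 at 6 weeks. No control library came within reach of an induced one. Female controls held 0.603, 1.02, 1.501 and 1.44 CPM, and female hearts 129, 208, 137 and 125 at 1 week, 193, 188, 201 and 184 at 3 weeks, and 185, 396, 305 and 271 at 6 weeks. The gene thus stood at over 100 CPM in every library of the induced groups and at no more than 2.06 CPM in controls of both sexes. The controls rest on 14 to 87 reads per library. At 6 weeks the log2 fold change was 6.78 (SE 0.28, limma adjusted p = 1.71e-12) in males and 7.45 (SE 0.41, adjusted p = 1.7e-11) in females, and the means stood 143 and 254 times as high as in controls. Without the female library with atrial transcripts the latter log2 value was 7.28.

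RefSeq promoters (build GRCm38.p6) were at hand for 8 of the 10 genes, all but *Mmp2* and *Mmp19*. The 250 bases upstream of the start site are shown for the genes with the largest rises and the largest fall, so that the start regions of genes that moved apart can be read side by side. They lie at chr9:7445572-7445821 (plus strand), chrX:20869916-20870165 (plus strand) and chr6:115252206-115252455 (minus strand). Capitals mark an AP-1 motif.
Mmp3: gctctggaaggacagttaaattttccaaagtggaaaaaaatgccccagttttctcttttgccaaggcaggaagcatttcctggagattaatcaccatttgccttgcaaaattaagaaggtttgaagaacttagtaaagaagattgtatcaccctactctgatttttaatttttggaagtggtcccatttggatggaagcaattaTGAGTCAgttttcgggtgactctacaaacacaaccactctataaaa
Timp1: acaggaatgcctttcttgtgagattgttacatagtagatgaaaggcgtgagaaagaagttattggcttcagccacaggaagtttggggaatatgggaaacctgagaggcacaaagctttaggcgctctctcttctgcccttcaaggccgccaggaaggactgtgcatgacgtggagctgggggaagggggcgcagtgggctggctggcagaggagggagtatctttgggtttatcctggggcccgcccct
Timp4: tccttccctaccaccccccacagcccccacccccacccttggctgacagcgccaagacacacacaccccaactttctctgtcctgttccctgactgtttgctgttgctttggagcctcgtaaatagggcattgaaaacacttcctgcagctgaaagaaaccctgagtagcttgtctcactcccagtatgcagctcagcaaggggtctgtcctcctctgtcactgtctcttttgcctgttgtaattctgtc
Both motifs searched read the same on both strands and do not contain one another: TGANTCA, the letters bound by AP-1 factors, and TTCNNNGAA, the letters bound by STAT factors. The AP-1 letters occurred in 1 of the 8 member promoters, that of *Mmp3*, as TGAGTCA starting 46 bases upstream of the start site, and in 6.75% of 32851 promoters of the same length. The STAT letters occurred in none of the 8, and in 7.02% of all. A match is a description of the letters in this window and not a binding site.

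The other rising proteases changed less. *Mmp19* (ENSMUSG00000025355, chr10:128626773-128636695), a secreted MMP of basement membrane and matrix proteins, was at 1.55 to 2.25 CPM in male controls and 10.2 to 13.5 at 6 weeks, with a log2 fold change of 2.42 (SE 0.19, adjusted p = 1.15e-08). In females the controls held 1.65 to 2.60 CPM and the 6-week hearts 12.2 to 19.4, a log2 fold change of 2.49 (SE 0.19, adjusted p = 1.93e-09). The controls of both sexes rest on 34 to 138 reads per library. *Mmp19* lies inside *Tmem198b* on the other strand, with 1084 shared exon bases, and *Tmem198b* averaged 5.32 to 7.35 CPM over the groups. The strand setting of the read counting is not given in the sources used here, so reads in shared bases may not be told apart.

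*Mmp14* (ENSMUSG00000000957, chr14:54668878-54682821) held 9.26, 10.1 and 18.7 CPM in male controls. At 1 week male hearts held 48.2, 54.5, 51.8 and 47.5 CPM, at 3 weeks 61.7, 52.9, 34.5 and 29.996, and at 6 weeks 50.8, 40.5 and 52.9. Control and induced libraries did not overlap, and the 3-week libraries were the most spread. In females, controls held 8.61 to 14.8 CPM and the weeks 41.1 to 61.1, 24.4 to 38.6 and 44.4 to 77.7. The 6-week log2 fold change was 1.94 (SE 0.24, adjusted p = 6.29e-06) in males and 2.36 (SE 0.19, adjusted p = 3.12e-09) in females.

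*Mmp2* (ENSMUSG00000031740, chr8:93553902-93580049), the gelatinase that MMP14 activates, was already among the more abundant members in controls, at 42.7 to 72.4 CPM in males and 52.4 to 72.1 in females. At 6 weeks it reached 165 to 257 CPM in males and 145 to 320 in females. The log2 fold change was 1.89 (SE 0.20, adjusted p = 1.03e-06) in males and 1.90 (SE 0.24, adjusted p = 2.23e-06) in females. No library of the induced groups fell within the control range of its sex.

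**Figure D2:**
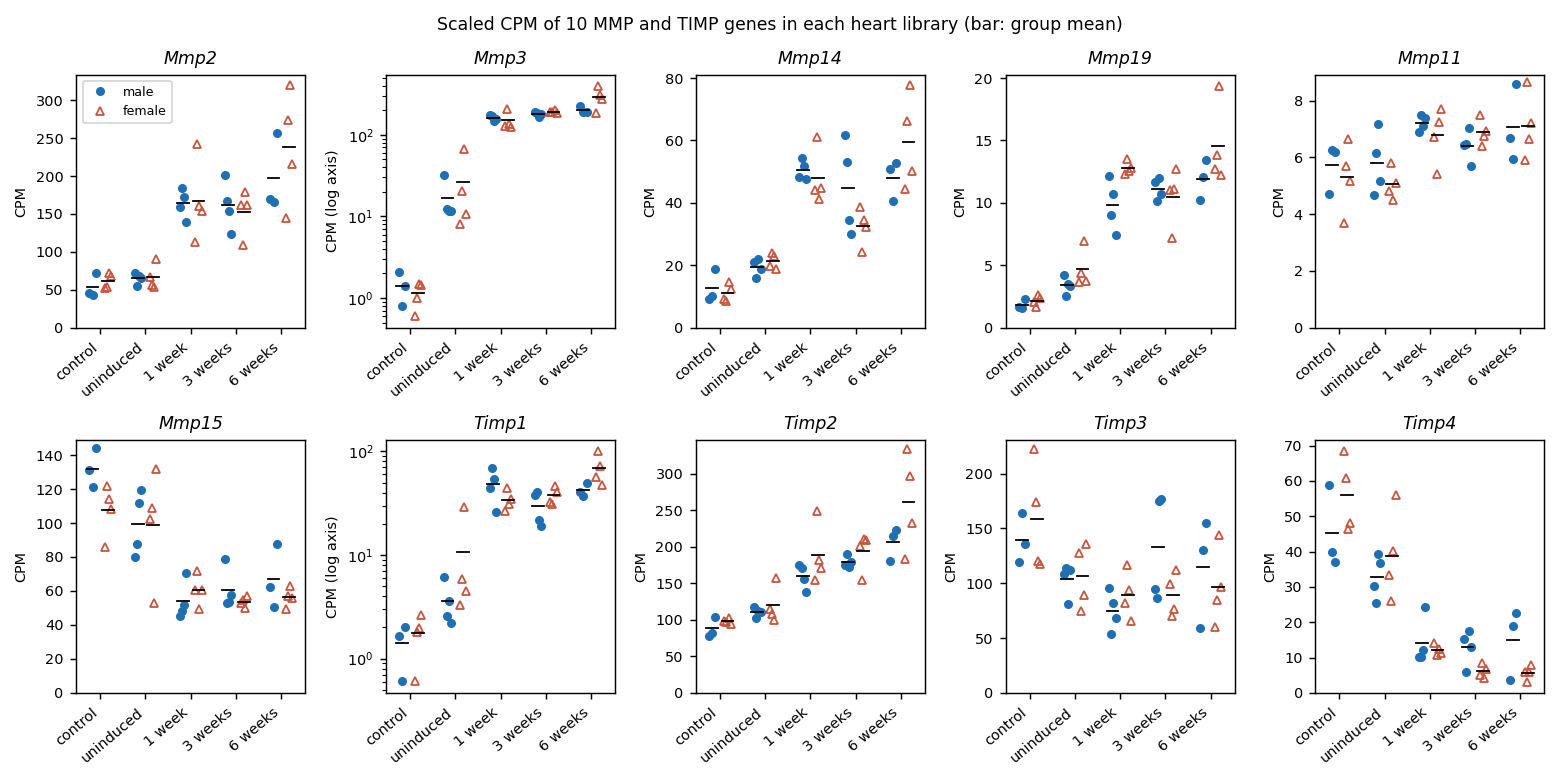
CPM of each member in every library (y axis; log axis for *Mmp3* and *Timp1*), by group, with males as filled circles, females as open triangles and a bar at each group mean. *Timp4* lies at 37.1 to 58.8 CPM in male controls and 3.74 to 22.5 CPM in male 6-week hearts, and at 46.3 to 68.4 and 2.92 to 7.95 CPM in females. The male 3-week libraries of *Timp3* split into a low and a high pair.

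*Timp1* (ENSMUSG00000001131, chrX:20736316-20740976), the inducible secreted inhibitor, rose most among the TIMPs. Male controls held 1.65, 0.606 and 2.02 CPM, and the later groups 44.7, 69.8, 54.4 and 25.8 at 1 week, 38.2, 40.9, 21.6 and 19.2 at 3 weeks, and 40.6, 36.9 and 49.0 at 6 weeks. In females the controls held 0.603, 1.79, 1.95 and 2.66 CPM and the later groups 26.3, 44.3, 31.3 and 34.5, then 32.7, 31.3, 46.5 and 40.6, then 56.2, 100.1, 72.4 and 47.7. Every induced heart stood well above every control, and the highest was the 6-week female library that held atrial transcripts. The log2 fold change at 6 weeks was 4.55 (SE 0.38, adjusted p = 3.03e-08) in males and 4.99 (SE 0.44, adjusted p = 1.73e-08) in females, the latter 4.79 without that library. *Timp1* lies inside *Syn1* on the other strand, with no shared exon bases.

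*Timp2* (ENSMUSG00000017466, chr11:118191887-118246566), whose product takes part in activating MMP2 besides inhibiting MMPs, rose less. It went from 78.3 to 104 CPM in male controls to 181 to 223 CPM at 6 weeks, and from 94.0 to 103 CPM in female controls to 183 to 333 CPM. Control and 6-week libraries did not overlap in either sex. The log2 fold changes were 1.22 (SE 0.12, adjusted p = 3.7e-07) and 1.38 (SE 0.17, adjusted p = 2.49e-06).

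*Timp4* (ENSMUSG00000030317, chr6:115187773-115229336) moved the other way. Male controls held 58.8, 39.8 and 37.1 CPM, and male hearts 10.04, 10.1, 12.002 and 24.2 at 1 week, 15.4, 6.00, 17.4 and 12.99 at 3 weeks, and 3.74, 19.0 and 22.5 at 6 weeks. Female controls held 68.4, 60.9, 46.3 and 48.1 CPM, and female hearts 14.2, 10.6, 12.3 and 11.4, then 5.02, 8.32, 4.23 and 6.73, then 6.03, 2.92, 5.97 and 7.95. The induced groups lay below the controls without overlap in both sexes. At 6 weeks the log2 fold change was -1.85 (SE 0.48, adjusted p = 0.00689) in males and -3.24 (SE 0.25, adjusted p = 2.23e-09) in females. The male value ranged from -2.30 to -1.08 when 1 library was left out, and was -1.08 without the 6-week replicate at 3.74 CPM; the call held each time. *Timp4* lies inside *Syn2* on the other strand and shares 1142 exon bases with it, while *Syn2* averaged 1.58 to 4.20 CPM over the groups.

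*Timp3* (ENSMUSG00000020044, chr10:86136236-86185371), the matrix-bound inhibitor that also blocks ADAM17, was less regular. Male controls held 120, 164 and 136 CPM, and male hearts 95.8, 53.7, 81.9 and 68.2 at 1 week, 94.6, 86.3, 175 and 177 at 3 weeks, and 59.0, 131 and 155 at 6 weeks. Of the induced male groups only the 1-week libraries lay wholly below the controls, and those of 3 and 6 weeks reached into or above the control range. Uninduced males, at 81.3 to 114 CPM, also lay below every control but did not pass (limma adjusted p = 0.651). The male log2 fold change was -0.92 (SE 0.29, adjusted p = 0.0212) at 1 week, a call lost without 1-week replicate 2 or control replicate 3, with adjusted p up to 0.0985. At 6 weeks it was -0.38 with a 95% interval of -1.04 to 0.27. Female controls held 222, 174, 120 and 118 CPM and 6-week hearts 60.2, 85.0, 144 and 96.5, a log2 fold change of -0.73 (SE 0.26, adjusted p = 0.027) with overlapping libraries. Female calls at 1, 3 and 6 weeks were each lost in 4 of 8 fits that left out 1 library, with adjusted p up to 0.0963, 0.0894 and 0.104. *Timp3* lies inside *Syn3* on the other strand and shares 1734 exon bases with it, while *Syn3* averaged 0.316 to 0.704 CPM over the groups.

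*Mmp15* (ENSMUSG00000031790, chr8:96078895-96101708) was the protease that fell. It stood at 131, 121 and 144 CPM in male controls and at 45.1 to 70.4, 52.7 to 78.9 and 50.7 to 87.5 CPM at the 3 weeks, and at 85.6, 122, 114 and 109 CPM in female controls against 49.6 to 71.6, 49.95 to 56.7 and 49.1 to 62.8 CPM. Controls and induced hearts did not overlap. The 6-week log2 fold change was -1.01 (SE 0.20, adjusted p = 0.000972) in males and -0.92 (SE 0.19, adjusted p = 0.000635) in females.

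*Mmp11* (ENSMUSG00000000901, chr10:75759055-75772330), another stromelysin by name that is released in active form, moved least at 6 weeks. It was at 4.72 to 6.25 CPM in male controls and 5.93 to 8.61 at 6 weeks, and the log2 fold change of 0.28 had a 95% interval of -0.07 to 0.62. In females it went from 3.70 to 6.65 CPM to 5.91 to 8.68 CPM, a log2 fold change of 0.40 (SE 0.15, adjusted p = 0.0347) with overlapping libraries. That call was lost in 4 of 8 fits that left out 1 library, with adjusted p up to 0.152. *Mmp11* shares 155 exon bases with *Chchd10* on the other strand, which averaged 290 to 478 CPM over the groups.

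Hearts that had received no tamoxifen already differed from controls in part of the family. In uninduced males only *Mmp3* passed the test, 1 of 10 against 0.561% of all genes called higher and 0.0354% lower. In uninduced females *Mmp3*, *Mmp14*, *Mmp19* and *Timp1* were higher, 4 of 10 against 2.41%, and no member was lower, against 0.466%. *Mmp3* held 32.5, 12.2, 11.6 and 11.7 CPM in uninduced males and 8.09, 20.7, 66.3 and 10.6 CPM in uninduced females. All 8 lay above every control and below every induced heart of their sex. The log2 fold change was 3.09 (SE 0.26, adjusted p = 4.67e-07) in males and 3.59 (SE 0.41, adjusted p = 2.23e-05) in females.

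Female replicate 3 of the uninduced group stood apart. It held the highest *Il11* of the group, 49.1 CPM beside 15.5 to 21.4 CPM in the others, and the highest *Mmp3*, *Mmp19* (6.92 beside 3.62 to 4.38 CPM) and *Timp1* (29.1 beside 3.28 to 5.86 CPM). It also held the lowest *Mmp15*, 52.7 CPM beside 102 to 132. Without it the same 4 members were called, with log2 fold changes of 2.99 for *Mmp3*, 0.89 for *Mmp14*, 0.74 for *Mmp19* and 1.23 for *Timp1*. In males the difference was 2.73 for *Mmp3* without replicate 1, the library at 32.5 CPM. *Timp1* in females was lost without control replicate 1 or 2, with adjusted p up to 0.097. In males *Mmp19* missed the threshold (log2 fold change 0.74, 95% interval 0.38 to 1.11, adjusted p = 0.0613), although the 2.52 to 4.24 CPM of uninduced hearts lay above every control. The values of *Timp4* in uninduced hearts, 25.3 to 39.4 CPM in males and 25.9 to 55.9 CPM in females, gave log2 fold changes of -0.44 (95% interval -1.38 to 0.49) and -0.56 (-1.08 to -0.04), neither past the threshold after adjustment.

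**Figure D3:**
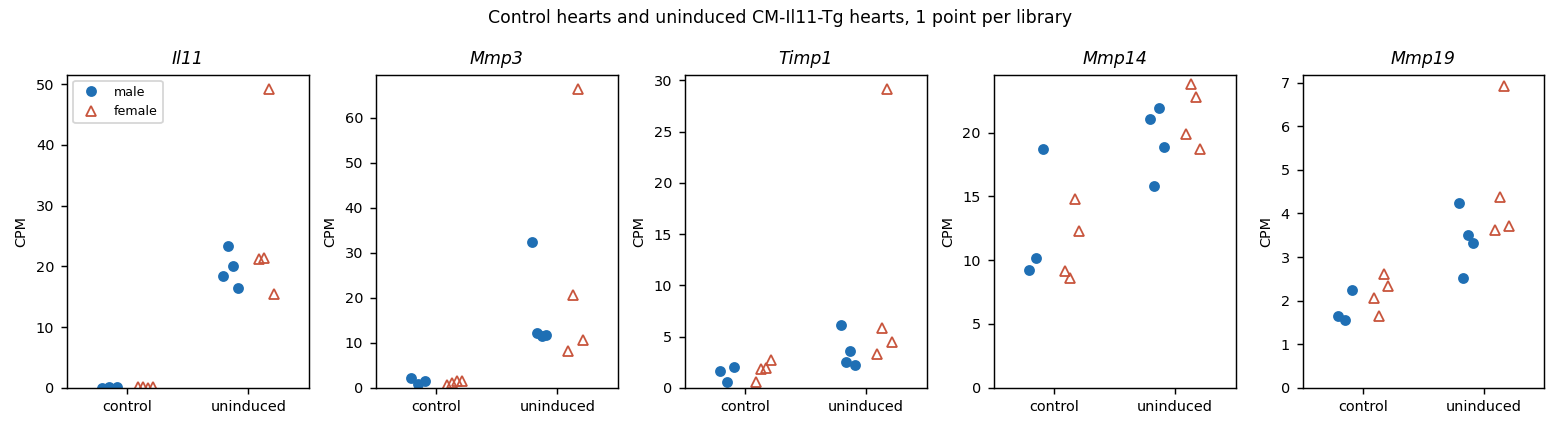
CPM (y axis) of *Il11* and the 4 members called in uninduced females, in control and uninduced CM-Il11-Tg hearts, 1 point per library, males as filled circles and females as open triangles. Female replicate 3 is the top open triangle for *Il11* at 49.1, *Mmp3* at 66.3, *Timp1* at 29.1 and *Mmp19* at 6.92 CPM.

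Set against the uninduced hearts, 8 members differed at 6 weeks in males, with 20.4% of all genes called in either direction, and 9 in females, with 22.8%. Induction, tamoxifen itself and any difference in age cannot be told apart in this comparison. *Mmp3* was 3.69 and 3.87 higher on the log2 scale, *Timp1* 3.45 and 3.12 higher, and *Timp4* changed by -1.41 and -2.68. *Timp3* passed in neither sex. The male calls of *Mmp15* and *Timp4* were lost in 4 and 3 of the 7 fits that left out 1 library, with adjusted p up to 0.157 and 0.208, and in the fit with only these 2 groups. The female call of *Mmp11* was lost with only these 2 groups and without 6-week replicate 2 or 4 or uninduced replicate 1 or 3, with adjusted p up to 0.131. Without 6-week replicate 2, the library with atrial transcripts, 8 members were called in females in place of 9.

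Between the weeks after tamoxifen few members moved. In males no member was called between 1 and 3 weeks, 1 and 6 weeks or 3 and 6 weeks by limma, edgeR or DESeq2. Of all genes, limma called 0.0177%, 0.165% and 0% in these comparisons. The counts over all genes were 2, 19 and 0 by edgeR and 282, 207 and 1 by DESeq2. By limma, 1, 1 and 0 members had an unadjusted p under 0.05. In females no member was called between 1 and 3 weeks by limma or edgeR (0.218% of all genes by limma). DESeq2 called *Timp4*, among 96 of all genes. *Timp4* was lower at 6 than at 1 week in females, with a log2 fold change of -1.09 (SE 0.25, limma adjusted p = 0.0329) and no overlap, 1 of 10 members against 1.03% of all genes; edgeR did not call it, and leaving out 1 library lost the call in 5 of 8 fits, with adjusted p up to 0.143 in the fit without the 6-week library that held atrial transcripts. From 3 to 6 weeks in females limma and edgeR called none of the 10, nor any of all genes (0%), 4 members had an unadjusted p under 0.05, and DESeq2 called *Mmp14*. *Mmp14* was 0.85 higher on the log2 scale at 6 than at 3 weeks, with a 95% interval of 0.47 to 1.24 and no overlap, adjusted p = 0.108 in limma. Across all genes 1072 in males and 2572 in females had an unadjusted p under 0.05 in that comparison, while after adjustment DESeq2 called 1 and 117 genes and edgeR 0 in each sex.

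Levels of different genes were compared per kb of annotated exon. All annotated exon bases of a gene were counted, 7743 for *Timp4* and 1957 for *Timp1*. The order of genes and the shares of a family depend on these lengths. In male controls the order ran from *Mmp15* at 24.5 CPM per kb through *Timp2* at 19.8, *Timp3* at 17.2 and *Mmp2* at 15.1 to *Timp4* at 5.85, then *Mmp14* at 2.06, *Mmp11* at 1.62, *Mmp3* at 0.791, *Timp1* at 0.728 and *Mmp19* at 0.513. The first 4 overlapped one another from neighbour to neighbour, as did the last 3. At 6 weeks *Mmp3* led without overlap at 113 CPM per kb in males and 161 in females, followed by *Mmp2* at 55.8 and 67.5 and *Timp2* at 46.2 and 58.6, whose libraries overlapped. *Timp4* was last at 1.95 CPM per kb in males, where its libraries overlapped those of *Mmp11* at 2.01, and at 0.738 in females, where they did not. In plain CPM, male *Timp4* averaged 15.1 at 6 weeks, above *Mmp19* at 11.9 and *Mmp11* at 7.07. Female *Timp4* held 2.92 to 7.95 CPM and female *Mmp11* 5.91 to 8.68 CPM.

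The make-up of the TIMPs changed with these moves. The summed level of the 4 TIMPs per kb was 43.5 ± 2.61 CPM per kb (SD, n = 3) in male controls and 83.8 ± 14.1 (n = 3) at 6 weeks, and 49.5 ± 7.03 (n = 4) and 106.5 ± 27.5 (n = 4) in females. *Timp1* supplied 1.68% of that sum in male controls and 26% at 6 weeks, and 1.92% and 32.97% in females. *Timp4* went from 13.6% to 2.19% in males and from 14.5% to 0.764% in females, and *Timp3* from 39.4% to 16.3% and from 38.6% to 11.2%. *Timp2* stayed the largest share, at 45.3% and 55.5% in males and 44.9% and 55.0% in females. The 6 MMPs summed to 44.6 ± 7.76 CPM per kb in male controls and 194 ± 18.2 at 6 weeks, and to 41.9 ± 5.65 and 254 ± 69.8 in females. These sums describe transcripts and were not tested.

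**Figure D4:**
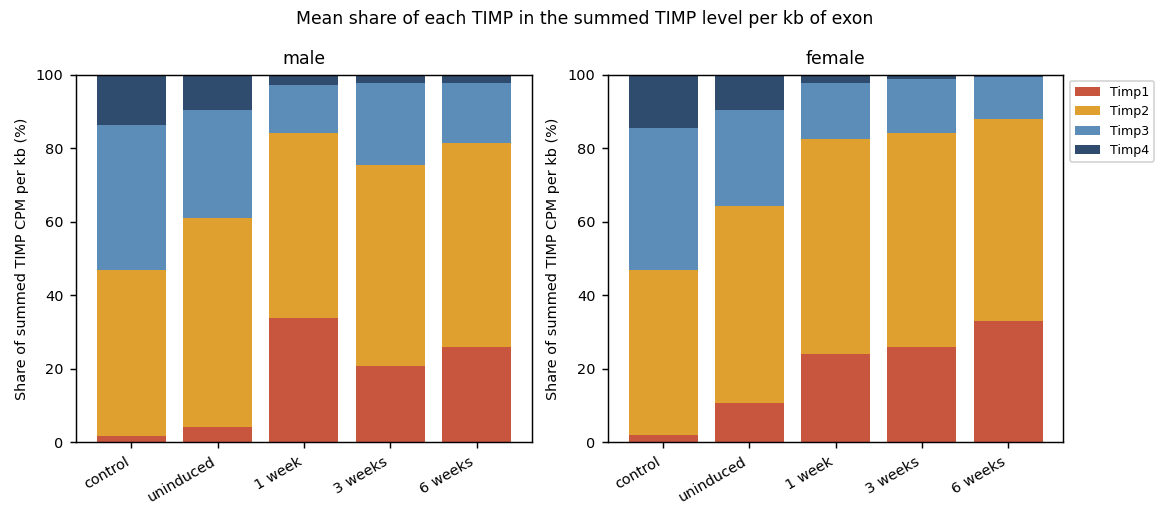
Mean share of each TIMP in the summed TIMP level per kb of exon (y axis, percent) in each group, males left and females right. The *Timp1* band grows from 1.68% and 1.92% in controls to 26% and 32.97% at 6 weeks, while those of *Timp3* and *Timp4* shrink.

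Of 17 other MMP genes, 10 were tested in males and 11 in females. At 6 weeks 5 were higher and 1 lower in males, and 8 higher and 1 lower in females. Among all genes tested, 16.2% were called higher and 10.9% lower in males, and 21.7% and 21% in females. The counts of lower genes were thus below the shares of all genes. *Mmp9*, the other gelatinase, rose by 4.81 (adjusted p = 2e-09) on the log2 scale in males and 4.68 (adjusted p = 2.61e-10) in females, from 0.525 ± 0.42 to 26.5 ± 4.3 CPM (SD, n = 3) and from 0.788 ± 0.32 to 33.8 ± 14 CPM (n = 4). *Mmp10*, a stromelysin also on chromosome 9, went from 0 to 2 reads per control library to 54 to 89 reads in males and 35 to 105 in females. *Mmp23* rose by 1.95 and 1.87, and *Mmp8* and *Mmp27* also rose in both sexes. *Mmp28* fell by 1.06 in females (adjusted p = 4.84e-05), with -0.61 in males (adjusted p = 0.0833). *Mmp13*, a collagenase, fell by 0.92 in males (adjusted p = 0.0147), with 0.03 in females (adjusted p = 0.927), and in uninduced females it was higher by 0.76 (adjusted p = 0.0318). Neutrophils carry MMP8 and MMP9. Of the 3 neutrophil markers tested, *Csf3r* was higher at 6 weeks in both sexes, by 1.36 and 1.35, while *S100a8* (-0.67 and -0.40) and *S100a9* (-0.63 and -0.26) did not pass. The summed level of the neutrophil markers was 4.37 to 5.76 CPM in males and 2.77 to 5.99 CPM in females, against 1.499 to 3.45 and 1.31 to 4.87 CPM in controls, and its part in these rises was not tested.

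**Figure D5:**
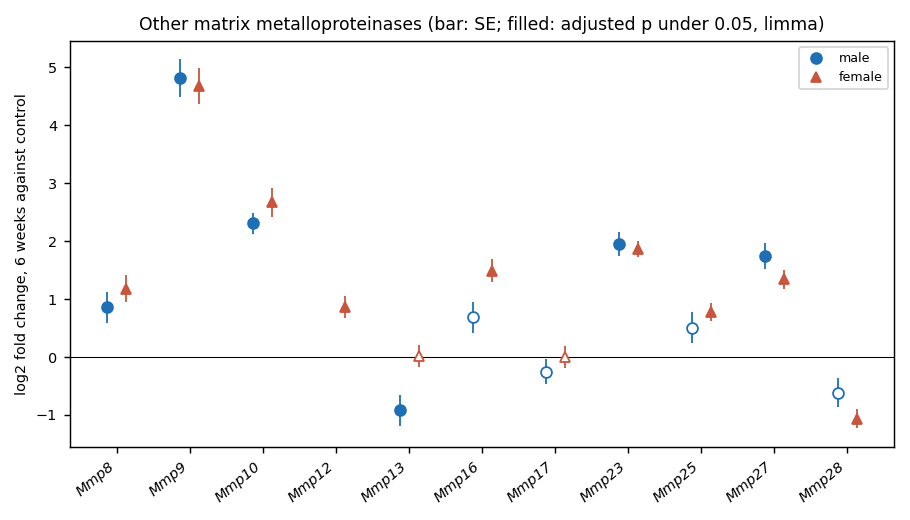
Log2 fold change at 6 weeks against control (y axis, log2(CPM + 0.5) scale, bars SE) of the other MMP genes tested, males as circles and females as triangles, filled where limma's adjusted p was under 0.05. *Mmp9* stands highest at 4.81 and 4.68, and *Mmp13* and *Mmp28* hold the values below 0 that passed.

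Among 15 genes that activate, restrain or clear MMPs, 14 were tested in each sex. At 6 weeks 4 were higher and 1 lower in males, beside 16.2% and 10.9% of all genes. In females 9 were higher and 2 lower, beside 21.7% and 21%. Here too the counts of lower genes were below the shares of all genes. *A2m*, which encodes a protease trap, rose by 2.21 (adjusted p = 0.00421) and 3.06 (adjusted p = 4.89e-07). *Plat*, the tissue plasminogen activator, rose by 1.00 and 1.55, *Pcsk5*, a proprotein convertase, by 1.01 and 1.43, and *Lrp1*, the receptor that takes up protease complexes, by 0.95 and 1.09. *Bsg*, which encodes the MMP inducer basigin, fell, with changes of -0.78 and -0.68. *Furin*, the convertase that activates proMMP14, fell by 0.40 in females (adjusted p = 0.00547) and was at -0.37 in males (adjusted p = 0.174). *Reck*, the membrane-anchored MMP inhibitor, was at -0.30 and -0.07, neither past the threshold. Of 10 matrix substrate genes, *Col1a1*, *Col1a2*, *Col3a1*, *Eln*, *Fn1* and *Vcan* rose in both sexes at 6 weeks, by 0.79 to 4.20 on the log2 scale, and *Lama2*, a laminin chain, fell, with changes of -1.05 and -0.79.

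Several lists of cell type markers moved with these genes. Of all genes at 6 weeks, 16.2% were called higher and 10.9% lower in males, and 21.7% and 21% in females. At 6 weeks all 9 macrophage markers were higher in both sexes, and their summed level was 960 to 1370 CPM in males and 1176 to 1341 CPM in females, against 233 to 377 and 217 to 281 CPM in controls. Of 8 fibroblast markers 5 were higher and 1 lower in each sex, with sums of 1888 to 2191 CPM in males and 2196 to 3300 CPM in females against 1239 to 1366 and 1681 to 1859 CPM. Of 9 markers of activated fibroblasts 6 were higher in males and 7 in females, with sums of 338 to 481 and 493 to 980 CPM against 124 to 326 and 141 to 323 CPM. Endothelial markers were lower for 4 of 8 in males and 6 of 8 in females, with sums of 1091 to 1361 and 1105 to 1202 CPM against 1653 to 1872 and 1694 to 1844 CPM. Cardiomyocyte markers were lower for 1 of 8 in males and 3 of 8 in females, summing to 39768 to 51572 and 39321 to 47583 CPM against 63416 to 72390 and 45980 to 62827 CPM; the male count is near the share of all genes called lower. Mesothelial markers were higher for 5 of 6 in females and 0 of 6 in males, with sums of 16.3 to 93.5 and 6.62 to 32.0 CPM against 5.71 to 11.2 and 6.86 to 8.22 CPM. Of smooth muscle and pericyte markers 2 of 8 were lower in each sex, and the female count is near the share of all genes. They summed to 658 to 765 and 619 to 956 CPM against 999 to 1252 and 971 to 1086 CPM. Of the T cell markers tested 1 of 4 in males, near the share of all genes, and 4 of 6 in females were higher. Their sums were 7.10 to 8.52 and 8.38 to 16.1 CPM against 1.55 to 2.90 and 1.55 to 3.05 CPM. In uninduced females 8 of 9 macrophage markers were higher, against 2.41% of all genes, and in uninduced males 0 of 9, against 0.561%. Their summed level was 400 to 545 CPM in uninduced females and 340 to 485 CPM in uninduced males. Controls held 217 to 281 CPM in females and 233 to 377 CPM in males. Whether the sexes differ was not tested. The part of these cell type markers in the members' changes was not tested.

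For each member the most similar genes were sought by Pearson correlation over the 18 male and 20 female libraries, taking the lower of the 2 values. These libraries share the large step from control to induced hearts, so high values describe that step. *Mmp3* was most like *Serpina3n* (r = 0.991 in males and 0.993 in females), an acute-phase protease inhibitor, and *Socs3* (0.993 and 0.986), the feedback inhibitor of STAT3 signalling. *Timp1* was most like *Pdpn* (0.983 and 0.982), *Mmp19* like *Tgfbr2* (0.985 and 0.985), *Mmp2* like *Mxra8* (0.971 and 0.973) and *Timp2* like *Anpep* (0.968 and 0.970), which was also second for *Mmp2*. *Mmp14* was most like *Loxl1* (0.973 and 0.969), a collagen and elastin crosslinking enzyme, ahead of *Adamts2* and *Col5a2*. *Mmp15* was most like *Whrn* (0.937 and 0.926), and *Timp3*, *Timp4* and *Mmp11* had no partner above 0.9 in both sexes, *Cdkn1c* coming first for *Timp4* at 0.871 and 0.886. With the group means taken out, r was 0.817 and 0.946 for *Mmp3* with *Serpina3n*, and 0.646 and 0.007 for *Timp4* with *Cdkn1c*. Among the members themselves, the pairs that varied most closely within groups were *Mmp3* with *Timp1* (0.613 in males and 0.923 in females), *Mmp2* with *Timp2* (0.662 and 0.922) and *Mmp2* with *Mmp14* (0.853 and 0.674). The female values for *Mmp3* include uninduced replicate 3, which stood apart from its group. It held 66.3 CPM of *Mmp3* beside 8.09 to 20.7, and 29.1 CPM of *Timp1* beside 3.28 to 5.86. Correlations without that library were not computed.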

How the data were processed

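Bulk polyA RNA of mouse hearts was sequenced in 40 libraries. The authors aligned paired-end reads to GRCm39 with STAR v2.7.10a, counted them on Ensembl release 106 with featureCounts in Rsubread v2.10.4, and used edgeR v3.38.1. The deposited signal values are CPM on scaled library sizes, in 1 table per sex; 100% of values were whole reads within 0.001, so reads were recovered for the count tests. Depth is given with the results. Among the members, counting error is largest in controls, at 14 to 124 reads per library for *Mmp3* and *Timp1* and 34 to 138 for *Mmp19*.

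Groups came from the labels; 2 male libraries with contradictory labels entered no comparison. Replicates are separate mice, and replicate numbers were not used to pair them. The mean correlation of deviations between libraries of one number was 0.013 over 33 male pairs and 0.025 over 40 female pairs. The lowest values were -0.134 and -0.342, and 4 male and 12 female pairs exceeded 0.1. A mean near 0 cannot exclude that some libraries of one number share a batch. Genes with at least 0.5 CPM in at least 3 libraries were tested with limma 3.58.1 (trend, R 4.3.3) on log2(CPM + 0.5), all 5 groups of a sex in 1 fit, two-sided, with Benjamini-Hochberg adjustment. The test was run first on simulated data. Alternatives were pseudocounts of 0.1 and 2, no filter, a filter at 1 CPM in 4 libraries, median-of-ratios scaling, 2-group fits, edgeR 4.0.16 and DESeq2 1.42.0 on recovered reads, a replicate block, a fold minimum and leaving out each library.

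The members and all lists were chosen with earlier results of these data known. Named genes are the members, genes of the MMP and regulator lists, substrates called in both sexes at 6 weeks, and the 3 genes most like each member; *Csf3r*, *S100a8*, *S100a9*, *Myl7* and overlapping genes were named after their values were seen. Gene positions and exon lengths are from GENCODE vM39 (GRCm39), promoters from RefSeq (GRCm38.p6), not converted between builds.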

Additional observations from a re-analysis of the deposited data

Results flagged for a closer look

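Within groups of 4, 7 of 88 sets of values held a library far from the other 3 (Dixon's criterion at 95%, which flags about 1 group in 20 by chance). *Mmp3* was at 32.5 CPM in male uninduced replicate 1, beside 11.6 to 12.2 CPM. *Mmp3* was at 208 CPM in female 1-week replicate 2, beside 125 to 137 CPM. *Timp1* was at 29.1 CPM in female uninduced replicate 3, beside 3.28 to 5.86 CPM. *Timp2* was at 155 CPM in female 3-week replicate 2, beside 202 to 210 CPM. *Timp3* was at 81.3 CPM in male uninduced replicate 3, beside 109 to 114 CPM. *Timp4* was at 24.2 CPM in male 1-week replicate 4, beside 10.04 to 12.002 CPM. That library also held the outlying *Il11* of its group, 712 CPM beside 351 to 410 CPM.

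*Timp4* in females differed between 6 weeks and 1 week after tamoxifen by -1.09 on the log2 scale (limma adjusted p = 0.0329).

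The 2 male libraries with contradictory labels were outside every comparison. The library titled control and described as 6 weeks was above the highest of the 3 male controls for *Mmp2* (164 CPM), *Mmp3* (232), *Mmp14* (41.5), *Mmp19* (13.004), *Timp1* (40.2), *Timp2* (211) and *Il11* (511). The library titled 6 weeks and described as control was above them for *Timp4* (60.8 CPM) and *Il11* (0.597).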

How the results depend on the processing

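No fold change of a member changed sign with its call under any alternative: of 2640 alternative values, 2580 stayed on their side of the threshold, 48 no longer passed and 12 newly passed. The counts of members called against control at 1, 3 and 6 weeks stayed within 1.5 times of those reported. For uninduced male hearts, 2 members were called in place of 1 with a pseudocount of 0.1 and by DESeq2, *Mmp19* being added, and 1 to 3 when 1 library was left out (3 without control replicate 4, where *Mmp14* was added too, and 2 without uninduced replicate 2). For uninduced female hearts, 2 members were called in place of 4 with only 2 groups in the fit and 2 with a fold minimum. In females, 3 against 1 week gave 1 member with only 2 groups and 1 by DESeq2. In females, 6 against 1 week gave 0 members with only 2 groups and 0 by edgeR, and 0 to 1 when 1 library was left out, with 0 without 6-week replicates 2 or 3 or 1-week replicates 1, 3 or 4. In females, 6 against 3 weeks gave 1 member by DESeq2 and 0 to 1 when 1 library was left out, with 1 without 6-week replicate 1. The cause was not tested. A replicate block changed no count, for example 8 members in males and 10 in females at 6 weeks, and the labels do not say that the numbers pair libraries. Depth limits the low control values, which rest on 14 to 87 reads per library for *Mmp3*.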

Other observations

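For the 10 members, the male library titled 6 weeks and described as control held 66.9 CPM of *Mmp2*, 1.35 of *Mmp3*, 4.14 of *Mmp11*, 15.04 of *Mmp14*, 126 of *Mmp15*, 2.11 of *Mmp19*, 0.677 of *Timp1*, 102 of *Timp2*, 151 of *Timp3* and 60.8 of *Timp4*. The male library titled control and described as 6 weeks held 5.91 CPM of *Mmp11*, 47.6 of *Mmp15*, 159 of *Timp3* and 22.9 of *Timp4* beside the values given above. No group was assigned from these values.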
